A study of Arabidopsis thaliana with 24 samples.

Results

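The change in shoot transcripts between the first and the third hour of cold was examined in 2 shoot arrays taken 3 h after transfer to 4 °C and 2 taken at 1 h, 4 of the 24 arrays of the series. The plants were Arabidopsis thaliana of the Col-0 accession, a wild type, grown on Murashige and Skoog medium at 24 °C and 50% humidity with 16 h of light a day. On day 16, after 3 h of light, their boxes were placed on ice in a cold room at 4 °C under lamps, so the 3 h shoots were taken 6 h and the 1 h shoots 4 h into the light period. Both groups had been chilled, no plants kept at 24 °C were analysed here, and the hours of cold cannot be told apart from the hour of the day. Total RNA of shoots and roots was read on Affymetrix ATH1 arrays, whose probe sets each measure a transcript as an intensity on a linear scale. Arrays of the same tissue at 0.5, 6, 12 and 24 h, and root arrays at 3 h and 1 h, give the course of each gene around this interval. All probe sets other than the platform's own controls were considered, 22746 in all, and tests were run on the 16073 with an intensity of 30 or more on 2 or more arrays of the 24.

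Plants sense a drop in temperature within minutes as a rise in cytosolic calcium and stiffer membranes. A first set of genes, which includes zinc finger and AP2 transcription factors, calmodulin-like calcium sensors and ubiquitin ligases, responds at once and for a short time. The CBF transcription factors, which were not analysed here, then switch on the cold-regulated (COR) genes, whose hydrophilic proteins protect membranes and other proteins against dehydration and freezing.

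One of the 4 arrays stood apart from its partner. Replicate 1 at 1 h gave 309 for the 3′ probe set of glyceraldehyde-3-phosphate dehydrogenase, against 799 to 1154 on the other 11 shoot arrays, and 412 for the middle probe set of ubiquitin, against 1056 to 1741. Other probe sets of these genes were within the range of those 11 arrays. The dehydrogenase read 1602 in the middle (range 1240 to 1709) and 645 at the 5′ end (626 to 805). Ubiquitin read 3449 at the 3′ end (3209 to 5813) and 1888 at the 5′ end (1171 to 3083). The log2 difference between replicates over all tested probe sets had an SD of 0.28 for the 3 h shoots and 0.44 for the 1 h shoots, against 0.23 to 0.29 for the other shoot groups. In 529 probe sets the 1 h shoot arrays lay more than 2-fold apart, while this held for 113 at 3 h. Over 18 spiked-in bacterial and phage control probe sets, whose RNA does not come from the plant, the SD between replicates was 0.14 at 3 h and 0.44 at 1 h. The array was kept, and values without it are given where a result rests on it. Green tissue markers were high on all 4 shoot arrays: the Rubisco activase gene RCA read 5434 and 5080 at 3 h, against 5672 and 5812 at 1 h, and 98.4 to 247 on the matching root arrays. Of the root markers OSM34 was under 6 on every one of these shoot arrays and at least 1378 in roots, whereas PYK10 read 518 and 722 in the 3 h shoots, against 738 and 623 in the 1 h shoots and 2750 to 3321 in roots.

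Many more transcripts had risen than fallen in shoots between 1 h and 3 h. Of 16073 probe sets 571 passed the test (3.55% of those tested, limma with Benjamini-Hochberg adjustment, adjusted p under 0.05). They comprised 458 that were higher at 3 h (2.85%) and 113 that were lower (0.703%). A change of at least 2-fold was seen in 310 of those that rose (1.93% of those tested) and in 22 of those that fell (0.137%). The rises were also steeper. The median change was 1.31 on the log2 scale for the called probe sets that rose, with 111 at least 4-fold, 30 at least 8-fold and 10 at least 16-fold higher, and it was -0.73 for those that fell, of which 1 was at least 4-fold lower. Over all tested probe sets the median change was -0.05. In each of the 571 both 3 h arrays lay beyond both 1 h arrays, as they did in 39.5% of all tested probe sets. Fold changes are on the log2(intensity + 10) scale, which understates the change of dim transcripts. The labels do not say whether replicates were separate cultures, so the spread between replicates behind the p-values may be technical. That spread was pooled over the 12 groups of all 24 arrays, so p-values and SEs do not follow the width of the 1 h pair. With only the arrays compared in the fit 200 probe sets were called, and 2 arrays a group limit the precision.

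**Figure D1:**
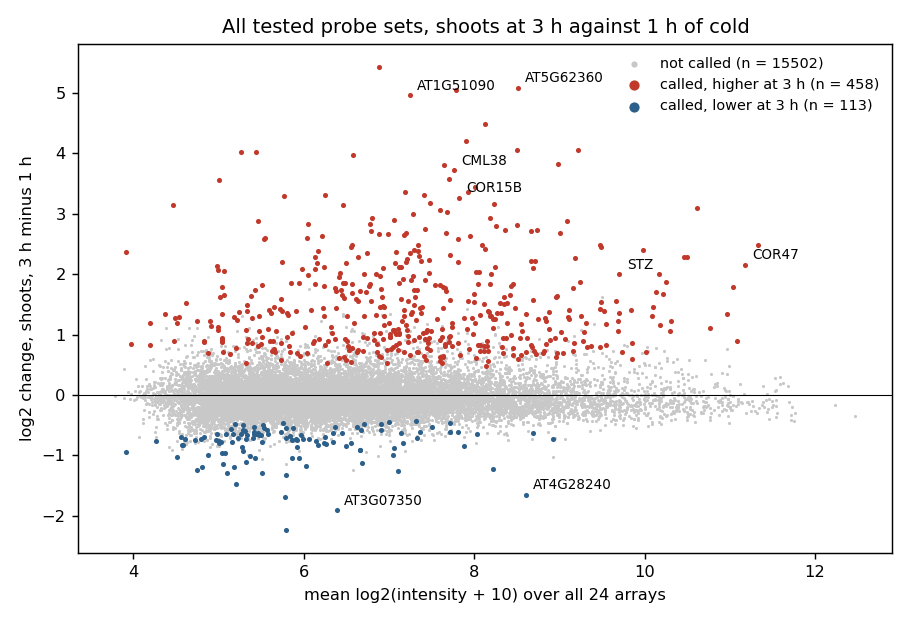
Change of each tested probe set in shoots (log2, 3 h minus 1 h) against its mean log2(intensity + 10) over the 24 arrays. Red points are the 458 called higher at 3 h, blue points the 113 called lower and grey points those not called, and the red points extend to 5.42 while the blue points end at -2.23.

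The probe sets that rose had a median intensity of 192 at 3 h, against 59.3 at 1 h, and those that fell 54.2 at 3 h, against 100.8 at 1 h. Over all tested probe sets the medians were 71.6 at 3 h and 71.4 at 1 h. Of the 458 that rose, 126 read under 30 on both 1 h arrays, and 93 of these read at least 30 and 28 at least 100 on both 3 h arrays. The matching share of all tested probe sets was not counted, and being called higher itself favours such 3 h values. The annotation pairs 234 of the 458 and 69 of the 113 with 1 gene each, and only these are named below. A further 258 of the 571 have no gene listed, among them both extremes. Probe set 252368_at read 870 and 894 at 3 h, against 3.87 and 21.1 at 1 h (log2 change 5.42), and 265724_at read 89.3 and 93.3, against 560 and 385 (-2.23). These last 2 were picked after their values were seen.

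Most COR genes were at the start of their climb. All 6 that could be measured were higher at 3 h than at 1 h, with a median log2 change of 2.38, where 2.85% of all tested probe sets were called higher. These genes are known cold markers and were listed with earlier results of these arrays known, so their direction is not independent evidence. COR15A and COR15B, neighbouring genes for small chloroplast proteins that stabilise membranes during freezing, had just left their low level. COR15B read 625 and 302 at 3 h, against 23.8 and 53.9 at 1 h (3.26 ± 0.30, log2 change ± SE, adjusted p = 1.2e-06). COR15A read 538 and 169 at 3 h, against 42.6 and 66.2 at 1 h (2.31 ± 0.40, adjusted p = 0.0015), and its change was 1.501 without replicate 1 at 3 h (adjusted p = 0.037). In both the 3 h arrays were the more spread, with replicate 1 the higher. They did not overlap with the 1 h arrays, as was so for all 571 called probe sets. The sequences of this pair are alike and their probe sets may share signal, which was not tested.

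The dehydrins COR47 and LTI30, hydrophilic proteins that bind membranes under dehydration, were both higher at 3 h. COR47 read 1856 and 1780 at 3 h, against 492 and 325 at 1 h (2.16 ± 0.26, adjusted p = 2.3e-05). LTI30 read 93.6 and 126 at 3 h, against 15.3 and 24.5 at 1 h (2.01 ± 0.22, adjusted p = 7.3e-06). COR27 and AT4G33980 (COR28) encode small proteins that link cold to the circadian clock, and both read at least 48.4 on every 3 h array, against at most 3.18 on any 1 h array. AT4G33980 read 72.0 and 60.1 at 3 h, against 0.707 and 3.18 at 1 h (2.67 ± 0.17, adjusted p = 1.7e-08). COR27 read 52.7 and 48.4 at 3 h, against 1.89 and 0.347 at 1 h (2.45 ± 0.19, adjusted p = 1.8e-07). With 1 h values this near background the size depends on the added constant: COR27 changed by 4.71 and AT4G33980 by 4.64 with 1 added in place of 10, and by 1.37 and 1.59 with 30.

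Over the whole course the 3 h mean of each of these COR genes lay below its means at 6, 12 and 24 h. COR47 was further along than the others, with averages of 182, 408, 1818, 4456, 6364 and 8723 at 0.5, 1, 3, 6, 12 and 24 h. COR15A averaged 40.3, 54.4, 354, 1572, 4240 and 7290 at 0.5, 1, 3, 6, 12 and 24 h, and LTI30 averaged 19.8, 19.9, 110, 1928, 5881 and 8297 (n = 2 arrays each). AT4G33980 was highest at 12 h (1227 and 1235) and read 337 and 250 at 24 h. AT1G16850, a gene of the abscisic acid list, marks a later start: it read 4.98 and 0.762 at 3 h, against 2.40 and 2.67 at 1 h (log2 change 0.02, adjusted p = 0.98), and reached 126 and 134 at 6 h and 3380 and 2525 at 24 h.

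**Figure D2:**
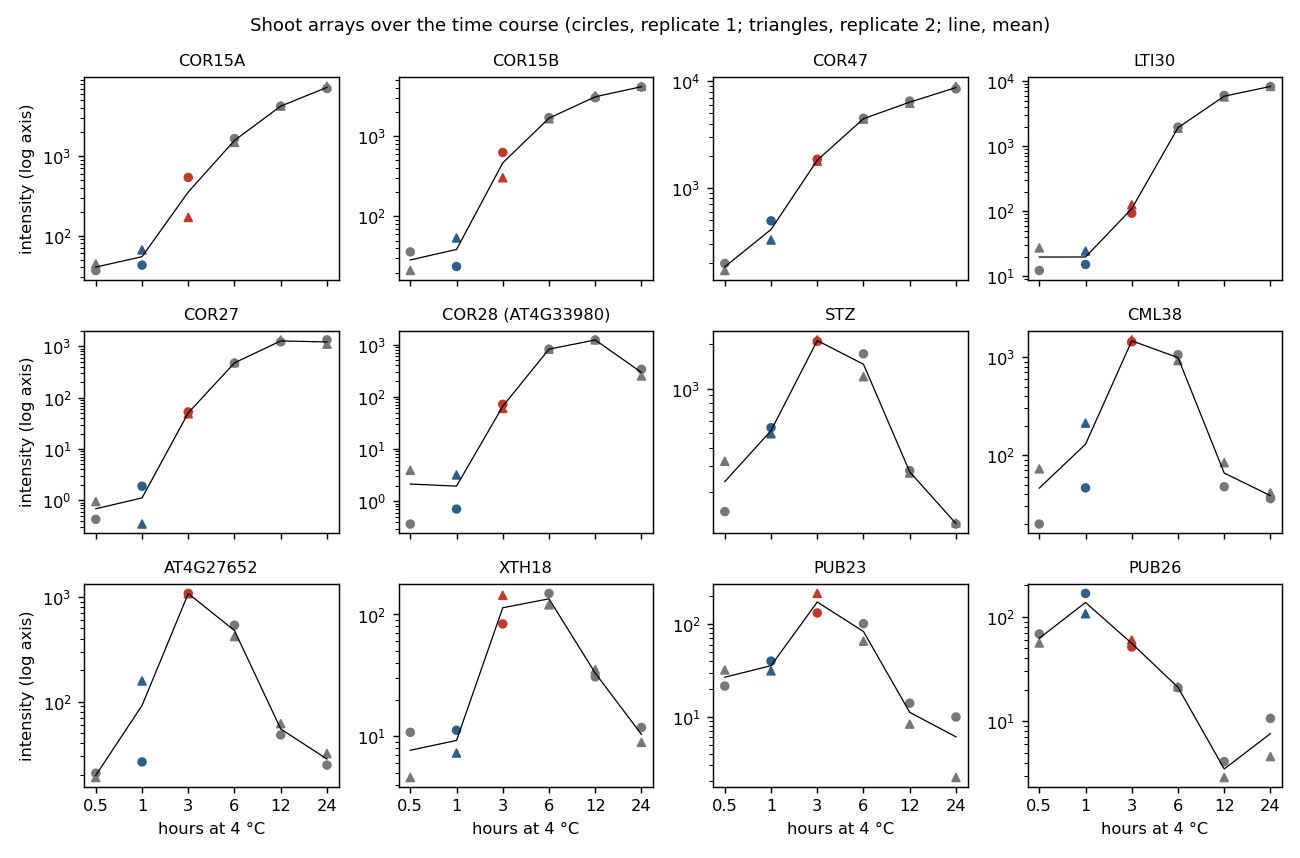
Intensity on shoot arrays (log axis) against hours at 4 °C for 12 genes, with 2 arrays at each time and a line through their mean. The 1 h arrays are blue and the 3 h arrays red. The 6 COR genes in the first 6 panels stand far above their 3 h level at 12 h, while STZ, CML38, AT4G27652 and PUB23 are highest at 3 h and PUB26 keeps falling to 12 h.

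Several signalling genes were nearer to their highest level of the course. STZ (ZAT10), a C2H2 zinc finger repressor induced by cold, drought and salt, read 2089 and 2135 at 3 h, against 545 and 495 at 1 h (2.002 ± 0.25, adjusted p = 4.2e-05). The arrays of each time lay close together. STZ was the 1 called of 2 tested early cold transcription factors, where 2.85% of all tested probe sets were higher, and the other changed by -0.62. CML38, a calmodulin-like calcium sensor, read 1435 and 1503 at 3 h, against 46.5 and 212 at 1 h (3.72 ± 0.51, adjusted p = 1.2e-04). The low value on the 1 h side comes from the array that stood apart, and without that array the change was 2.73. The 6 tested calmodulin and calmodulin-like genes had a median change of -0.07. CML38 was the 1 called among them, where 2.85% of all tested probe sets were higher. It is also in the list of touch, wound and jasmonate genes, where it and WRKY53 were called higher of 3 tested (2.85% over all probe sets). The WRKY53 call was not kept in every fit, as given below.

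Among 6 tested WRKY factors, which act in defence and senescence, 2 were higher at 3 h, where 2.85% of all tested probe sets were, and the list's median change was 0.31. WRKY22 read 104 and 152 at 3 h, against 51.6 and 56.7 at 1 h (1.09 ± 0.17, adjusted p = 5.4e-04). WRKY53 read 57.3 and 119 at 3 h, against 44.0 and 17.7 at 1 h (1.27 ± 0.32, adjusted p = 0.030), and its call was kept in 2 of the 4 fits that left out 1 of these arrays. It was lost without replicate 2 at 3 h (change 0.80, adjusted p = 0.43) and without replicate 2 at 1 h (0.79, adjusted p = 0.14). Of 5 tested MYB and bHLH factors 1 was lower, where 0.703% of all tested probe sets were. This was bHLH115, an iron-homeostasis regulator, with 106 and 107 at 3 h, against 257 and 153 at 1 h (-0.84 ± 0.18, adjusted p = 0.0094). Its call was lost without replicate 1 or 2 at 3 h (adjusted p = 0.071 and 0.069) and without the 1 h array that stood apart (change -0.48, adjusted p = 0.20). No call was made among 2 ERF and DREB factors, 1 NAC factor and 2 calcium-dependent or MAP kinases. GI (GIGANTEA), a clock gene whose transcript builds up during the day, read 117 and 124 at 3 h, against 63.9 and 56.8 at 1 h (0.89 ± 0.16, adjusted p = 0.0017). It was the 1 called of 2 tested clock genes, where 2.85% of all tested probe sets were higher, and the other changed by -0.13.

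Of 11 tested U-box and ATL genes, whose products attach ubiquitin to proteins, 3 were higher, 1 was lower and 7 were not called, and the median change was 0.14. The shares over all tested probe sets were 2.85% higher and 0.703% lower. The list does not hold every gene of this kind: AT2G47560 and AT1G49200, RING genes outside it that are described below, were called lower. PUB19, a U-box ligase that acts in drought and abscisic acid responses, read 695 and 329 at 3 h, against 36.1 and 33.8 at 1 h (3.45 ± 0.32, adjusted p = 1.3e-06). PUB23, a negative regulator of immune and drought responses, read 132 and 215 at 3 h, against 39.9 and 31.2 at 1 h (1.98 ± 0.33, adjusted p = 8.7e-04). ATL5, a RING-type ligase, read 102 and 96.9 at 3 h, against 59.0 and 51.7 at 1 h (0.74 ± 0.16, adjusted p = 0.0078), a call lost without replicate 1 at 3 h (adjusted p = 0.075). PUB26, a U-box ligase, was lower, with 51.4 and 59.95 at 3 h, against 168 and 107 at 1 h (-1.14 ± 0.24, adjusted p = 0.0080). The call of PUB26 was lost without replicate 1 at 3 h (adjusted p = 0.089) and without the 1 h array that stood apart (change -0.84, adjusted p = 0.18). PUB19 and PUB23 parted later. PUB19 read 2434 and 2490 at 24 h, while PUB23 read 9.92 and 2.20, below its 1 h arrays.

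Of 23 tested expansins and xyloglucan hydrolases, genes of the cell wall, 3 were higher and none was lower, and the median change was -0.05. Over all tested probe sets 2.85% were called higher. XTH18 and XTH19 encode enzymes that cut and rejoin xyloglucan in the wall. XTH18 read 83.6 and 144 at 3 h, against 11.2 and 7.28 at 1 h (2.65 ± 0.31, adjusted p = 1.9e-05). XTH19 read 80.6 and 93.7 at 3 h, against 8.74 and 9.38 at 1 h (2.35 ± 0.26, adjusted p = 1.1e-05). They are neighbouring genes of like sequence, and signal shared between their probe sets was not tested. EXLA1, an expansin-like protein, read 266 and 343 at 3 h, against 70.0 and 129 at 1 h (1.56 ± 0.25, adjusted p = 6.4e-04), and went on to 2255 and 1986 at 24 h, whereas XTH18 was at 11.8 and 8.91 by then.

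The 15 named genes with the highest change on the log2(intensity + 10) scale spanned log2 changes of 3.26 to 5.08 with adjusted p of at most 1.2e-04, and all 15 kept their call when any 1 of the 4 arrays was left out. AT5G62360, whose product belongs to the inhibitors of invertases and pectin methylesterases, read 1394 and 1268 at 3 h, against 38.7 and 22.0 at 1 h (5.08 ± 0.31, adjusted p = 7.0e-09). AT1G11210 read 590 and 513 at 3 h, against 4.74 and 9.63 at 1 h (5.04 ± 0.22, adjusted p = 1.6e-10). AT1G51090, a protein with a heavy-metal-associated domain, read 540 and 428 at 3 h, against 2.03 and 10.6 at 1 h (4.96 ± 0.25, adjusted p = 6.9e-10). These 3 read at most 38.7 at 1 h and at least 428 on both 3 h arrays. For genes near background at 1 h the size of the change and the rank depend on the added constant: AT1G51090 changed by 6.35 with 1 added and by 3.83 with 30, AT5G62360 by 5.46 and 4.51, and AT1G22570 by 3.55 and 3.03. With 1 added, COR27 and AT4G33980 exceeded several of the 15.

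AT4G36010, of the thaumatin family of defence proteins, read 673 and 574 at 3 h, against 28.6 and 27.4 at 1 h (4.05 ± 0.21, adjusted p = 1.0e-09). AT2G17660, of the RIN4-like family linked to immune signalling, read 284 and 281 at 3 h, against 8.81 and 7.28 at 1 h (4.02 ± 0.30, adjusted p = 1.4e-07). In both the arrays of a time nearly coincided. AT4G27652 read 1080 and 1073 at 3 h, against 26.5 and 157 at 1 h (3.80 ± 0.43, adjusted p = 1.4e-05), and its change was 2.70 without the 1 h array that stood apart. AT5G52050, a MATE-type transporter, read 283 and 402 at 3 h, against 33.2 and 10.2 at 1 h (3.56 ± 0.33, adjusted p = 1.4e-06). AT1G22570, of the nitrate and peptide transporter family, read 668 and 693 at 3 h, against 58.9 and 55.6 at 1 h (3.36 ± 0.15, adjusted p = 1.6e-10), the smallest error among the 15. AT1G70420, AT4G29780, AT5G28430 and AT3G02840, the last an armadillo-repeat protein, rose by 3.57, 3.32, 3.31 and 3.29.

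**Figure D3:**
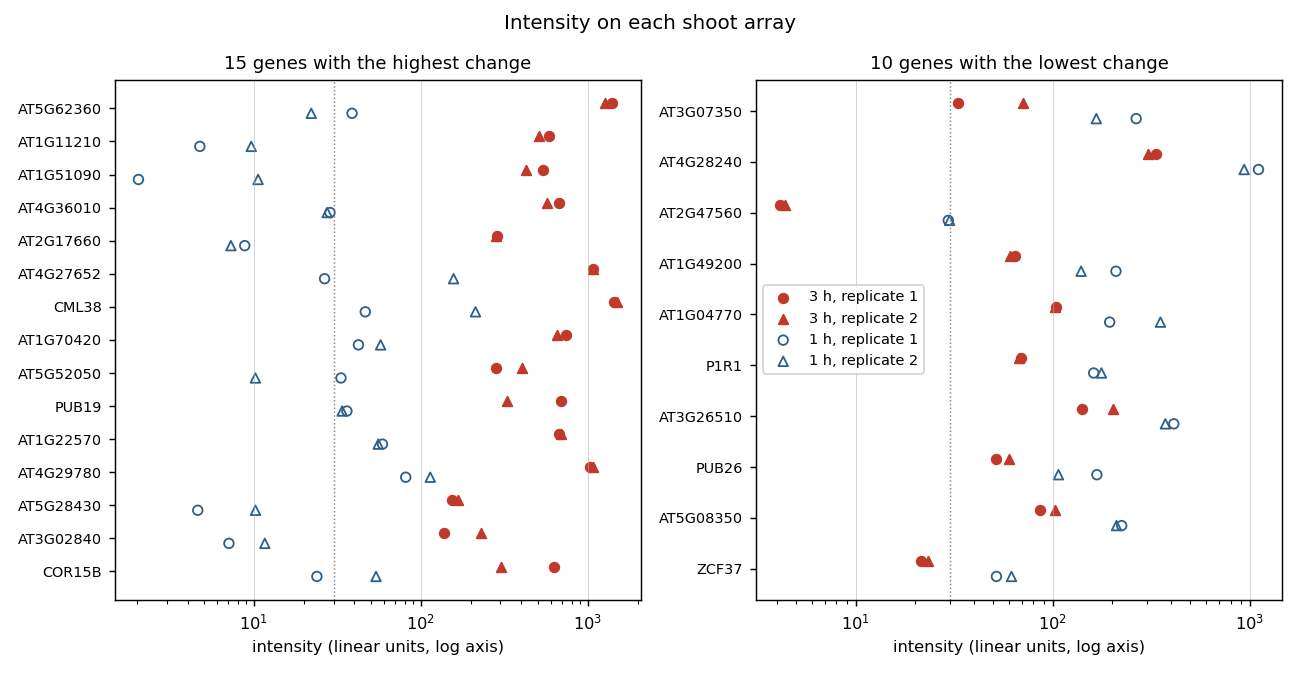
Intensity on each shoot array (log axis) for the 15 named genes with the highest change and the 10 with the lowest. Filled red symbols are the 3 h arrays, open blue symbols the 1 h arrays, circles replicate 1, triangles replicate 2, and the dotted line the intensity of 30 used for the filter. Red and blue do not overlap in any gene, which was a condition for the choice of these genes. The widest 1 h pairs are those of AT1G51090, AT4G27652 and CML38.

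Of these 15 genes 6 had a 24 h mean above the 3 h mean and 4 had one below the 1 h mean, and the rest lay between their 1 h and 3 h means. AT1G51090 averaged 484 at 3 h, 1584 at 6 h, 2329 at 12 h and 2689 at 24 h, and AT5G62360 averaged 1331, 3293, 4379 and 2275 at the same times. AT4G27652 averaged 1077, 477, 54.7 and 28.3, CML38 averaged 1469, 991, 65.8 and 38.7, and AT4G29780 averaged 1048, 242, 27.4 and 31.6. AT5G52050 read 2.66 and 5.50 at 24 h, after 283 and 402 at 3 h. These means rest on 2 arrays each and are given as a description, since the later arrays were not part of the test. The 15 were chosen by their rise from 1 h to 3 h, which bears on how many lie above or below those levels later.

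The 10 named genes with the largest fall changed less, by log2 values of -1.91 to -1.04. AT3G07350 read 33.0 and 70.7 at 3 h, against 266 and 167 at 1 h (-1.91 ± 0.29, adjusted p = 4.4e-04). AT4G28240, of a wound-responsive family, read 333 and 303 at 3 h, against 1109 and 938 at 1 h (-1.65 ± 0.15, adjusted p = 1.2e-06). Its replicates lay close together at both times. AT2G47560, a RING-type ligase gene, read 4.12 and 4.40 at 3 h, against 29.6 and 30.01 at 1 h (-1.48 ± 0.13, adjusted p = 9.4e-07), near background in shoots. It passed the intensity filter only through root arrays, which read 97.6 and 93.7 at 3 h, against 148 and 151 at 1 h. Its change, and so its rank, depends on the added constant: it was -2.55 with 1 added in place of 10 and -0.80 with 30. AT1G49200, another RING finger gene, read 64.5 and 60.8 at 3 h, against 210 and 140 at 1 h (-1.32 ± 0.23, adjusted p = 0.0016). Without the 1 h array that stood apart its change was -1.04 with an adjusted p of 0.0497.

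P1R1, AT5G08350, a protein with a GRAM domain, and ZCF37 fell by 1.19, 1.12 and 1.04 on the log2 scale. P1R1 read 69.1 and 67.8 at 3 h, against 162 and 177 at 1 h, and both 0.5 h arrays were still higher, at 202 each. Less firm were AT1G04770, AT3G26510 and PUB26. AT1G04770, known as a sulfur-deficiency-induced gene, read 104 and 103 at 3 h, against 195 and 353 at 1 h (-1.26 ± 0.30, adjusted p = 0.020), and kept its call only without replicate 1 at 1 h among the 4 fits that left out an array (adjusted p 0.0070 there and 0.10 to 0.13 in the other fits). AT3G26510, a protein with a PB1 domain, read 140 and 202 at 3 h, against 412 and 374 at 1 h (-1.17 ± 0.23, adjusted p = 0.0047), and lost it without replicate 1 at 3 h (adjusted p = 0.10) or at 1 h (adjusted p = 0.059). None of the 10 had a 6 h mean above its 3 h mean, and in 8 the mean at 0.5 h was below that at 1 h. At 24 h the mean of all 10 was below that at 1 h, and for AT4G28240 it was nearest, at 914 against 1024. The 10 were chosen by their fall from 1 h to 3 h, which favours 0.5 h and 24 h means below the 1 h mean. The matching shares of all tested probe sets were not counted.

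Photosynthesis and most growth and stress lists gave no call at this interval. Of 32 lists, 26 had a tested gene, 11 had a call and 15 had none. The 10 tested nuclear photosynthesis genes changed by -0.40 to -0.01 with a smallest adjusted p of 0.52, and LHCB4.1, an antenna protein gene, read 5562 and 5108 at 3 h, against 8351 and 5951 at 1 h. Also without a call were 7 auxin response genes (median change 0.02), 8 endoplasmic reticulum folding genes (-0.05), 7 glutaredoxins, thioredoxins and peroxiredoxins (-0.06), 5 hypoxia genes (-0.18), and 2 each of heat shock, flavonoid, starch and sugar, abscisic acid and cytokinin regulator genes. With 2 arrays a group this does not show that they were stable. In simulated data of the same size 63 of 100 probe sets changed by 1 on the log2 scale were called, and 94 of 100 changed by 2. The simulated noise of a probe set had the same SD on every array, so the wider 1 h pair was not imitated and these rates may not hold here. Of 6 tested LEA genes 2 were called higher, where 2.85% of all tested probe sets were, and the list's median change was 0.02. These were LTI30 and COR47, which are also among the COR genes above.

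Chloroplast-encoded genes could not be judged. None of the 69 was called, with a median change of -0.02, a range of -0.66 to 1.34 and a smallest adjusted p of 0.10. Their replicates disagreed at 1 h: 22 genes lay more than 2-fold apart on the 1 h arrays, against 2 on the 3 h arrays and at most 1 in each of the other shoot groups. For rpl32, a ribosomal protein gene, the values were 1060 and 1277 at 3 h, against 216 and 1578 at 1 h. For rps16, likewise, they were 365 and 414 at 3 h, against 62.1 and 336 at 1 h. For rbcL, the large subunit of Rubisco, the difference ran the other way, with 887 and 1293 at 3 h, against 2555 and 1124 at 1 h. These 3 were chosen after their values were seen. The 25S ribosomal RNA control read 1052 and 1129 at 3 h, against 1862 and 1766 at 1 h, a difference shared by both 1 h arrays.

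**Figure D4:**
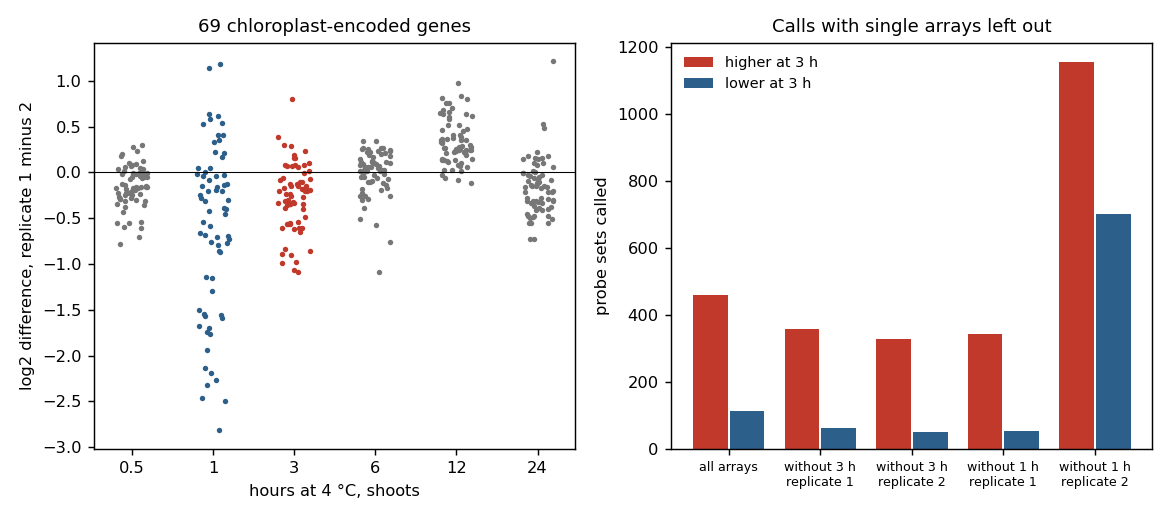
Left, log2 difference of replicate 1 minus replicate 2 for 69 chloroplast-encoded genes against hours at 4 °C in shoots, where the 1 h points (blue) spread from -2.82 to 1.18. Right, the number of probe sets called higher (red) and lower (blue) in shoots with all arrays and with 1 of the 4 arrays left out, which runs from 327 to 1154 for those higher and from 50 to 702 for those lower.

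The count of calls depended on single arrays. It was 420 without replicate 1 and 377 without replicate 2 at 3 h, 397 without replicate 1 at 1 h, and 1856 when the other 1 h array was removed and the one that stood apart was left alone. The share of calls that were higher was 80.2% with all arrays and 62.2% when that array stood alone. Of the 458 called higher 264 (57.6%) kept their call in all 4 such fits, against 19 of the 113 called lower (16.8%). Of the called probe sets that rose 60.9%, and of those that fell 28.3%, read lower on replicate 1 than on replicate 2 at 1 h, against 54.1% of all tested. At 3 h the corresponding shares were 50.2%, 56.6% and 47.2%. The part of that array in the called falls was not tested beyond these fits.

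The roots of the same time points were compared next, with the limit that the 3 h root arrays were the widest pair of the series. The log2 difference between replicates had an SD of 0.47 for the 3 h roots, with 739 probe sets more than 2-fold apart, and 0.29 for the 1 h roots, with 156. In bulk tissue a lower level can mean fewer cells of a type or less RNA in each, and these cannot be told apart. The change between 1 h and 3 h differed between shoots and roots in 166 probe sets (1.03% of those tested, limma interaction term, adjusted p under 0.05), 140 with the more positive and 26 with the more negative change in shoots. Of these, 152 were also called in shoots alone, and the shoot change enters both tests, which favours the overlap. Among the 458 that rose in shoots the root change had a median of 0.38 and was above 0 in 370 (80.8%), against a median of -0.03 and 44.2% of all tested probe sets. Among the 113 that fell in shoots the root change had a median of -0.08 and was above 0 in 38 (33.6%).

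For 4 genes the rise in shoots exceeded that in roots by the most. AT1G51090 changed by 4.96 in shoots and 0.77 in roots (difference 4.197 ± 0.36, adjusted p = 3.6e-06). AT4G36010 changed by 4.05 and 0.71 (3.35 ± 0.30, adjusted p = 6.4e-06), and in roots it read 128 and 189 at 3 h, against 96.1 and 86.6 at 1 h. AT2G17660 changed by 4.02 in shoots and 0.70 in roots (3.32 ± 0.43, adjusted p = 3.5e-04). COR15B changed by 3.26 in shoots and -0.03 in roots, where it read 10.1 and 19.8 at 3 h, against 17.3 and 12.8 at 1 h (3.29 ± 0.43, adjusted p = 3.5e-04). AT1G22570 was close behind, with 3.36 in shoots and 0.12 in roots (3.24 ± 0.21, adjusted p = 3.1e-07). All of these but COR15B had a root change above 0, and 9 of the 15 genes with the highest change passed this test. The 15 were ranked by their shoot change, which is part of the difference tested, so this count was favoured by the choice.

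Other rises were not told apart between tissues. AT5G62360 changed by 5.08 in shoots and 3.34 in roots (difference 1.74 ± 0.44, adjusted p = 0.077), PUB19 by 3.45 and 2.27 (adjusted p = 0.33), and EXLA1 by 1.56 and 1.59 (adjusted p = 0.99). LTI30 changed by 2.01 in shoots and 1.16 in roots (adjusted p = 0.30), and its root arrays read 2609 and 2901 at 3 h, against 1378 and 1084 at 1 h. XTH18 and XTH19 did differ, by 2.36 ± 0.44 (adjusted p = 0.0088) and 2.55 ± 0.37 (adjusted p = 0.0010). In roots XTH18 was already at 326 and 400 at 3 h, against 341 and 256 at 1 h, above every shoot value of that interval.

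In the opposite direction AT1G49200 fell by 1.32 in shoots and rose by 1.01 in roots (difference -2.33 ± 0.33, adjusted p = 7.8e-04). AT3G07350 changed by -1.91 in shoots and 0.36 in roots (-2.27 ± 0.42, adjusted p = 0.0085). AT4G28240 changed by -1.65 and -0.11 (-1.54 ± 0.22, adjusted p = 7.7e-04). AT1G19025 was named for roots: it read 23.2 and 34.7 at 3 h, against 30.2 and 36.1 at 1 h in shoots (-0.16), and 104 and 82.7 at 3 h, against 26.9 and 21.5 at 1 h in roots (1.59), a difference of -1.75 ± 0.31 (adjusted p = 0.0056). The count of 166 was 106 without replicate 2 of the 3 h shoots and 1303 without replicate 2 of the 1 h shoots. Among root arrays it was 761 without replicate 1 at 3 h and 107 without replicate 1 at 1 h.

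**Figure D5:**
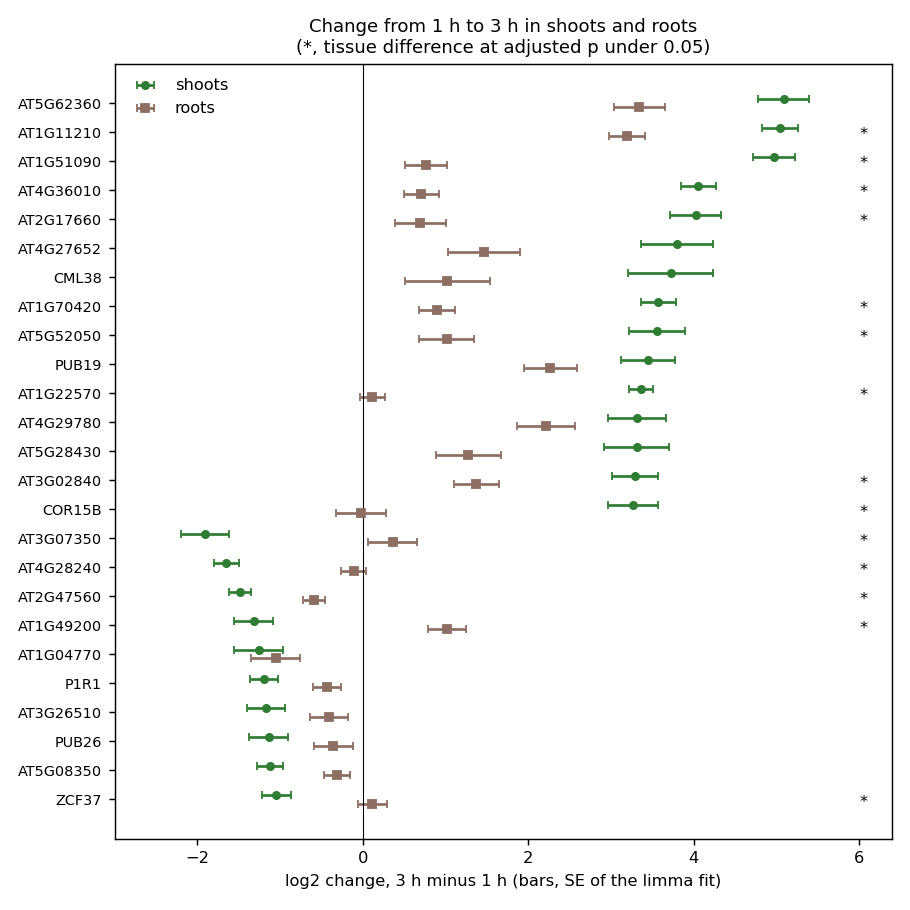
Log2 change between 1 h and 3 h in shoots (green circles) and roots (brown squares) for the 15 highest and 10 lowest named genes, with bars of 1 SE from the limma fit. Asterisks mark the 14 genes whose shoot and root changes differed at an adjusted p under 0.05, and the green circles of the first 15 all lie above 3. The genes were chosen by their shoot change, which favours both.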

How the data were processed

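The deposited values are probe set intensities made by the authors with MAS5, per the submitters' processing notes, and each array's trimmed mean was 100, so arrays share a scale. Which version and settings of MAS5 were used is not given in the sources used here, nor are its detection calls. Groups and replicate numbers came from the sample titles. Control probe sets (64 of 22810) were left out, 10 was added and log2 taken, and probe sets under 30 on all but 1 of the 24 arrays were dropped. limma 3.58.1 in R 4.3.3 was fitted to 12 group means over all 24 arrays (12 residual degrees of freedom), with 2-sided tests and Benjamini-Hochberg adjustment. It was tested on simulated data with equal noise on all arrays, unlike the 1 h shoot pair, where 10 unchanged probe sets were called. Named genes have exactly 1 gene in the platform annotation (13513 probe sets). Those named are the 15 highest and 10 lowest calls with arrays that do not overlap, up to 4 calls per list (the brightest member where none was called), and the 4 highest and 4 lowest tissue differences. A gene's brightest probe set stood for it. Members and lists were chosen with earlier results of these data known. Lists of trehalose, gibberellin and brassinosteroid, mitochondrial, ribosomal protein, aquaporin and lipid genes had no tested member under this annotation. Promoter motifs and sequences were not analysed here.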

Additional observations from a re-analysis of the deposited data

Results flagged for a closer look

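The change between 1 h and 3 h differed between shoots and roots, by the interaction term of the limma fit (adjusted p under 0.05), in 18 of the named genes. Of all tested probe sets 1.03% passed this test. Named genes were chosen in part by their shoot change or by this difference, so the count was favoured by the choice. The difference of the log2 changes, shoots minus roots, was positive for AT1G51090 (4.197), AT4G36010 (3.35), AT2G17660 (3.32), COR15B (3.29), AT1G22570 (3.24), AT1G70420 (2.67), XTH19 (2.55), AT5G52050 (2.54), XTH18 (2.36), AT3G02840 (1.92), COR27 (1.91) and AT1G11210 (1.85). It was negative for AT1G49200 (-2.33), AT3G07350 (-2.27), AT1G19025 (-1.75), AT4G28240 (-1.54), ZCF37 (-1.16) and AT2G47560 (-0.89), the last near background in shoots. Groups of 2 arrays are too small to single out an array within a group by its gap.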

How the results depend on the processing

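Of 980 alternative values for 64 results, 920 kept sign and side of the threshold, 48 lost a call and 1 gained one (ATMPK8). The sign changed in 11 values of 7 results, none of them called, all within 0.48 of 0. The 571 shoot calls numbered 200 with only the arrays compared in the fit and 333 with array weights. With 1 array left out they ranged from 377 to 1856, those of at least 2-fold (332) from 299 to 626, and the tissue differences (166) from 106 to 1303. With only the arrays compared, 200 were at least 2-fold and 19 differed between tissues, against 76 with array weights. Of the lost calls 21 came with only the arrays compared. The replicate block gave 530, 327 and 154. Deviations of same-numbered arrays gave r = -0.08 between 3 h and 1 h shoots, -0.21 to 0.18 over the 15 pairs of shoot groups, -0.45 to 0.33 over those of root groups and -0.08 to 0.06 between tissues at 1 time, so the numbers were not taken to pair the arrays. At an unadjusted p under 0.05 there were 2361 shoot calls.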
